A study of Mus musculus with 22 samples.

Results

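The MHC class II pathway was described in the terminal ileum of NOD mice through 10 genes: the class II chain genes H2-Aa, H2-Ab1 and H2-Eb1, the invariant chain gene Cd74, the peptide exchange genes H2-DMa and H2-DMb1, the genes of the exchange inhibitor H2-Oa and H2-Ob, the protease gene Ctss and the regulator gene Ciita. Each gene was read from the array probe set annotated to its symbol alone, and where there were several, from the one with the highest mean over the 22 arrays. By that rule 9 of the 10 genes were measured among 18193 genes in all. The remaining gene, H2-DMb1, was covered only by 2 probe sets annotated to H2-DMb1 and H2-DMb2 together, and these are given below as a shared reading of both genes.

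NOD is an inbred mouse strain that develops autoimmune diabetes. All groups were NOD mice, and what was compared was treatment within each sex: control, PAT (therapeutic doses of antibiotics given in pulses) and STAT (antibiotics below the therapeutic dose). There were 3 arrays each of control females, PAT females, STAT females and STAT males, and 5 arrays each of control males and PAT males. No label used here names the drugs, doses or ages. Nothing in the labels says that the arrays came from separate animals, so the p-values cover the scatter among the samples as labelled, some of which may be technical. The arrays held whole terminal ileum, in which fewer cells of a type and less RNA per cell cannot be told apart. The ileal bile acid binding protein gene Fabp6 lay between 13.93 and 14.62 on the log2 scale over the 22 arrays, and the mean of 10 epithelial markers lay between 13.12 and 13.45.

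MHC class II molecules present peptides from ingested material to CD4 T cells. An alpha and a beta chain pair in the endoplasmic reticulum with the invariant chain CD74, which fills the binding groove. In the endosome the protease cathepsin S, the product of Ctss, trims CD74 down to a short remnant. H2-DM then exchanges that remnant for peptide, and H2-O, found mainly in B cells, restrains H2-DM. The coactivator CIITA turns the genes on through a promoter module read by the RFX and NF-Y complexes, in B cells, dendritic cells and, after interferon gamma, in macrophages and intestinal epithelium. NOD mice carry the I-A class II molecule (H2-Aa with H2-Ab1) and lack the I-E molecule because their H2-Ea gene is not expressed.

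Of the 10 genes, 7 sit on chromosome 17 in a single stretch that runs in the order H2-Oa, H2-DMa, H2-DMb1, H2-Ob, H2-Ab1, H2-Aa and H2-Eb1. The class I genes Psmb9, Tap1, Psmb8 and Tap2 lie inside the same stretch, between H2-DMb1 and H2-Ob. Ciita, Cd74 and Ctss each lie on another chromosome. RefSeq promoters (build GRCm38.p6, a reference strain and not NOD) were matched by symbol for 7 of the 10, all but H2-Ab1, Cd74 and Ciita. The last 150 bases before the start are printed for the 6 of them that held a searched motif there. They show which of the searched letters the printed class II promoters hold and the Ctss promoter does not. H2-DMa was left out because it held no searched motif there. All sequences read 5′ to 3′ on the strand of the gene, with motifs in capitals. The motifs were AACNNATGA, a spelling from the X box read by RFX, GATTGG, the Y box read by NF-Y, and GAAANNGAA, a spelling from the interferon response element; both strands were searched, no motif overlapped another in the printed windows, and the X spelling was chosen with these sequences in view.

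H2-Aa, chr17:34287824-34287973, minus strand: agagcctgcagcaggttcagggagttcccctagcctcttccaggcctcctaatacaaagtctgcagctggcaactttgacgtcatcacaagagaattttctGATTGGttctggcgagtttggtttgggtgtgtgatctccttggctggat

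H2-Eb1, chr17:34305717-34305866, plus strand: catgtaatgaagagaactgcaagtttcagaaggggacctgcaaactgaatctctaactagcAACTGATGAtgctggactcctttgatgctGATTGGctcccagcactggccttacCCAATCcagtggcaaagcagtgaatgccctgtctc

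H2-DMb1, chr17:34153041-34153190, plus strand: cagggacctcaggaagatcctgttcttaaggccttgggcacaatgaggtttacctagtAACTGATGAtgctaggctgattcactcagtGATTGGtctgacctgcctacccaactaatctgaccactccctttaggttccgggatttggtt

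H2-Ob, chr17:34238755-34238904, plus strand: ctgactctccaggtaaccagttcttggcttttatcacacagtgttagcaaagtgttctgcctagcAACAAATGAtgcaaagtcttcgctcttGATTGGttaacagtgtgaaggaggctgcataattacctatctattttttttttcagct

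H2-Oa, chr17:34092229-34092378, plus strand: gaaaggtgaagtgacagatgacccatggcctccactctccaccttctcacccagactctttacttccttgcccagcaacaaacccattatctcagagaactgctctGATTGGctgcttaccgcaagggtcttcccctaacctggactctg

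Ctss, chr3:95526636-95526785, plus strand: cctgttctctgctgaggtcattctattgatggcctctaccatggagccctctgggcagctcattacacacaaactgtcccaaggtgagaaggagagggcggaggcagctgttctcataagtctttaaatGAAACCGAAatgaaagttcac

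In H2-Eb1, H2-DMb1 and H2-Ob the X spelling was followed by GATTGG on the same strand. Counted from the start, the X spelling began at -89 in H2-Eb1, -92 in H2-DMb1 and -85 in H2-Ob, and GATTGG began at -60, -62 and -58. Over all 32851 promoters of the same length in the table, the X spelling was found in 935 (2.85%) and GATTGG in 5292 (16.1%). Both in this order, with starts at most 40 bases apart, were found in 11 promoters (0.0335%), among them those of H2-DMb1, H2-DMb2, H2-Ob and H2-Eb1. The others were those of Casp8, 1700016L21Rik, Tnfrsf9, Dnah6, Scgb2b20, Gm34733 and BC051142. Because the X spelling was chosen with the class II promoters in view, their place among the 11 is not a separate finding. H2-Aa and H2-Oa had GATTGG, at -49 and -44, without this spelling of the X box. Ctss had neither and carried GAAANNGAA at -21, a motif found in 2812 promoters (8.56%). H2-DMa, which has more than 1 promoter in the table, had no searched motif in the 150 bases before any start. Farther out, GATTGG began at -199 in 1 of its promoters. A match is a description of letters and not of binding.

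1 array stood apart in most of these genes. PAT female 1, titled BP121 in the labels, held the highest level of the 22 arrays in 7 of the 9 measured genes, against 9.52% of all genes. On that array H2-Aa, H2-Ab1, H2-Eb1 and Cd74 were 1.94, 1.97, 1.98 and 1.99 times the median of the other 21 arrays. H2-DMa was 1.84 times, H2-Oa 1.65 times and H2-Ob 9.69 times that median. Ciita was 1.34 times its median and second highest. Ctss was not raised there, at 0.663 times its median. B cell markers were also high on that array: 8 of 13 were at their highest there, among them Ms4a1, the gene of CD20, at 9.16 against at most 5.56 elsewhere, and Cd79b, a chain of the B cell receptor complex, at 8.16 against at most 5.90. The mean level of the B cell list was 6.537 on PAT female 1 and between 5.23 and 5.597 on the other 21 arrays. Of the other lists, 3 of 11 T cell, 2 of 10 dendritic cell, 1 of 12 macrophage, 0 of 7 plasma cell and 0 of 10 epithelial markers were highest there. The follicle epithelium genes Spib (5.11 times the median of the other arrays) and Gp2 (2.75 times) were also highest there, but of the other 5 genes of that list Ccl9 was at its lowest there, at 0.7 times its median, and Anxa5 and Marcksl1 were second lowest, at 0.787 and 0.635 times theirs. The mean levels of the T cell (5.802 against at most 5.773), dendritic cell (6.074 against at most 5.992) and follicle epithelium lists (7.918 against at most 7.761) were highest there too. The part of these cell types in the class II levels was not tested, and differences of the class II genes between PAT females and their controls are given with and without this array.

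**Figure D1:**
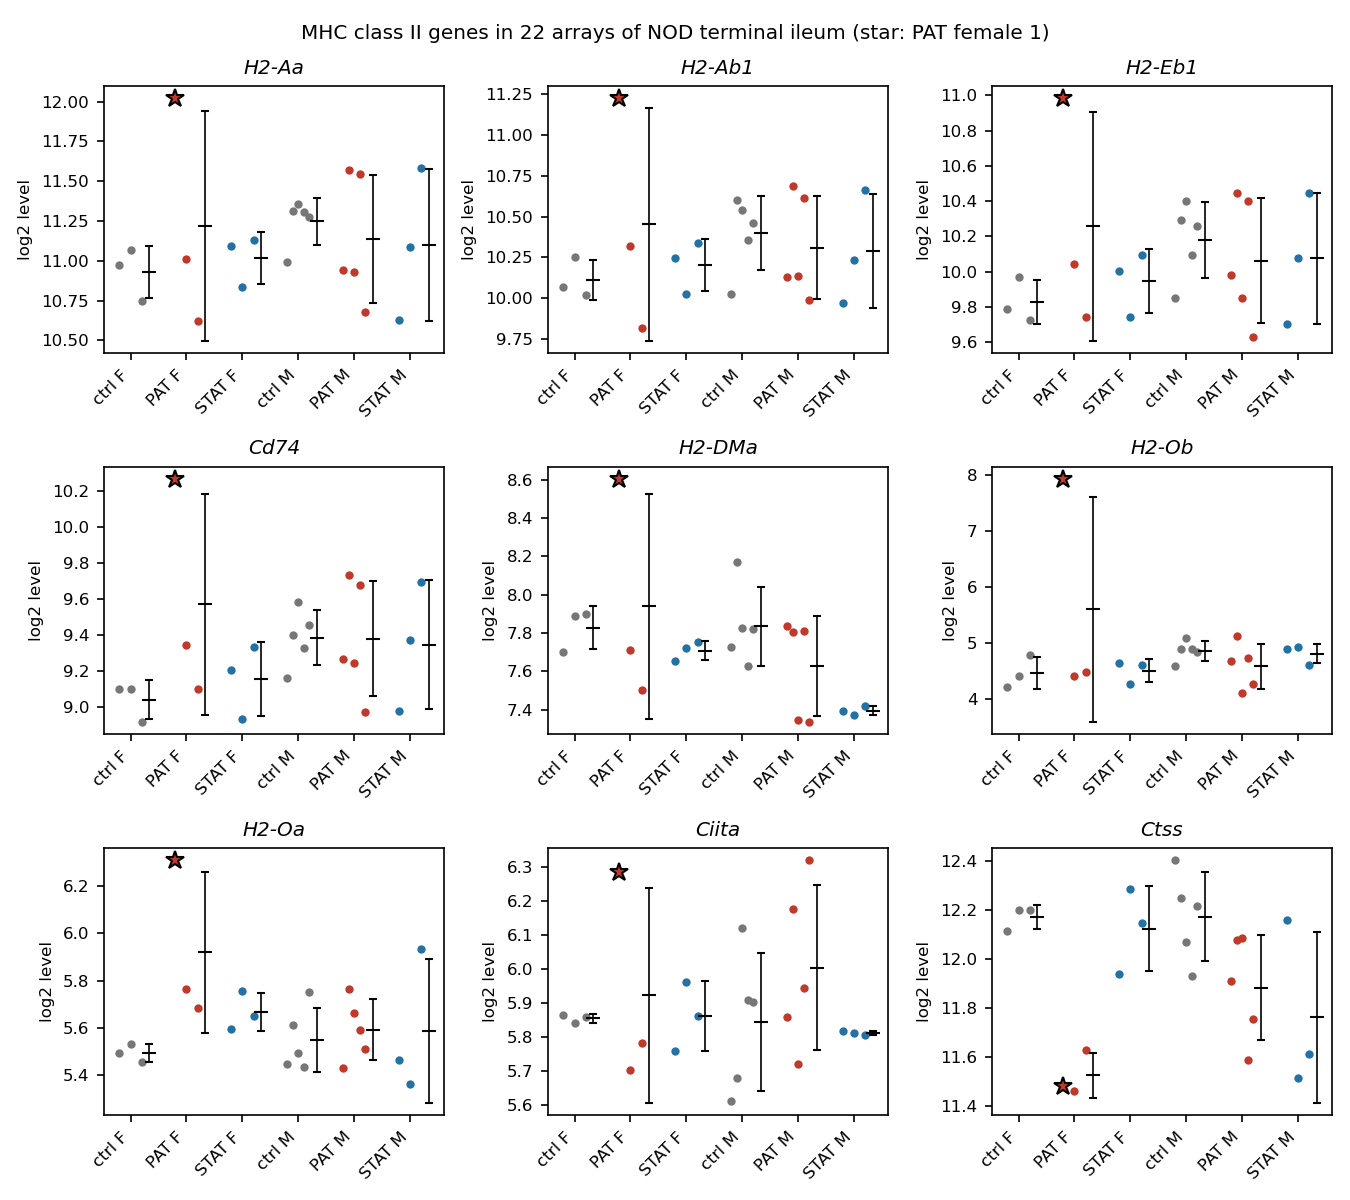
Log2 level (vertical axis, a separate scale for each gene) of the 9 measured genes on each of the 22 arrays, by group (ctrl, control; F, female; M, male), with the group mean and SD as bars beside the points. PAT female 1, the star, is the highest point in every panel except Ciita, where it is second, and Ctss, where all 3 PAT females lie below all control females.

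Ctss was the 1 gene of the pathway that passed the test, and it was lower with PAT. In control females its log2 level was 12.11, 12.20 and 12.20, and in PAT females 11.48, 11.47 and 11.63. In control males it was 12.40, 12.25, 12.07, 11.93 and 12.22, and in PAT males 11.91, 12.08, 12.09, 11.59 and 11.76. The PAT females all lay below the control females, as 13.2% of all genes did, while the male groups overlapped. Averaged over the sexes, Ctss fell by 0.47 ± 0.10 (SE; n = 8 and 8; 95% confidence interval of the difference -0.67 to -0.26), which is 1.38-fold, with a limma adjusted p of 0.00397. In females it fell by 0.64 ± 0.15 (1.56-fold, n = 3 and 3, limma adjusted p = 0.0279). In males the difference was -0.29 ± 0.12 (n = 5 and 5, limma adjusted p = 0.134), and the test of the difference between the sexes gave -0.35 ± 0.20 (limma adjusted p = 0.325).

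The fall of Ctss averaged over the sexes did not rest on PAT female 1: without it the difference was -0.46 ± 0.11 (limma adjusted p = 0.0114), and it passed in all 16 fits that left out 1 array. In females alone the call was lost without any of 5 of the 6 arrays, with almost the same size. It was -0.67 (limma adjusted p = 0.058) without control female 1, -0.63 (0.0956) without control female 2, -0.63 (0.0975) without control female 3, -0.62 (0.0962) without PAT female 1 and -0.61 (0.0882) without PAT female 2. The log2 difference between the 3-prime and 5-prime Gapdh control probe sets served as the measure of RNA integrity, and its range differed between the groups. It lay between -0.265 and -0.0907 in the 8 control arrays and between -0.225 and -0.0253 in the 8 PAT arrays. On every array it was below 0, so the 5-prime signal was the higher. Whether it follows RNA quality or the treatment was not tested. With this Gapdh difference as a covariate Ctss was at -0.30 ± 0.10 averaged over the sexes (limma adjusted p = 0.103) and at -0.48 ± 0.14 in females (limma adjusted p = 0.114), so neither passed.

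In STAT females Ctss was 11.94, 12.28 and 12.14, within the range of the controls of both sexes. In STAT males it was 12.16, 11.52 and 11.61, so 1 array lay among the controls and the other two below all of them. The difference from control was -0.05 ± 0.15 in females (limma adjusted p = 1) and -0.41 ± 0.14 in males (n = 3 and 5, limma adjusted p = 0.158), and -0.23 ± 0.10 averaged over the sexes (limma adjusted p = 0.352). Without STAT male 1 the male difference was -0.61 (limma adjusted p = 0.00643) and the average -0.33 (limma adjusted p = 0.0414), so this array decides whether Ctss passes with STAT. The change was not particular to Ctss: over all genes, 0 called became 1973 in males and 1053 averaged over the sexes without that array. The Gapdh difference also split the STAT males. It was -0.246 on STAT male 1, within the control males (-0.265 to -0.196). On STAT male 2 and STAT male 3, the arrays of lower Ctss, it was -0.0372 and -0.0767, outside that range. Whether the split of Ctss follows this measure was not tested. PAT females all lay below STAT females, as 11.2% of all genes did, by 0.60 ± 0.15 on the log2 scale (n = 3 and 3, limma adjusted p = 0.0656). From the highest group mean to the lowest, Ctss ran from control males (12.17 ± 0.18, SD, n = 5) and control females (12.17 ± 0.05, n = 3) through STAT females (12.12 ± 0.17, n = 3), PAT males (11.88 ± 0.21, n = 5) and STAT males (11.76 ± 0.35, n = 3) to PAT females (11.53 ± 0.09, n = 3). Each neighbouring pair in that order overlapped in range.

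The class II chain genes did not differ from control beyond their spread with either treatment. H2-Aa, the alpha chain of I-A, was at 10.97, 11.07 and 10.75 in control females, 12.02, 11.01 and 10.62 in PAT females, and 11.09, 10.83 and 11.13 in STAT females. In males it was at 10.99, 11.31, 11.36, 11.30 and 11.27 with control, 10.94, 11.57, 10.93, 11.55 and 10.68 with PAT, and 10.63, 11.09 and 11.59 with STAT. The PAT males split on either side of the controls and the STAT males spanned them. Averaged over the sexes, H2-Aa with PAT was at 0.09 ± 0.18 from control (95% confidence interval -0.28 to 0.46), which did not pass, and without PAT female 1 it was at -0.11 ± 0.15. In females it was at 0.29 ± 0.28 with all arrays and at -0.11 ± 0.25 without that array. With STAT averaged over the sexes, H2-Aa was at -0.03 ± 0.19 from control (95% confidence interval -0.42 to 0.36).

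H2-Ab1, the beta chain of I-A, was at 10.07, 10.25 and 10.02 in control females and at 11.23, 10.32 and 9.82 in PAT females. The PAT females included both the highest and the lowest of the 22 arrays. Its PAT difference in females was 0.34 ± 0.26 with all arrays (limma adjusted p = 0.485) and -0.05 ± 0.22 without PAT female 1 (limma adjusted p = 0.946). H2-Eb1, the beta chain of I-E, was at 9.79, 9.97 and 9.73 in control females and at 10.99, 10.04 and 9.74 in PAT females. Its difference in females was 0.43 ± 0.25 (limma adjusted p = 0.352), and 0.06 ± 0.23 without PAT female 1. In males the PAT differences of H2-Ab1 and H2-Eb1 were -0.09 ± 0.20 and -0.12 ± 0.20, with overlapping groups. The partner gene of H2-Eb1, H2-Ea, was read by 3 probe sets that disagreed in level, 1 with a mean of 8.27 and the others at 3.81 and 3.25. On the brightest of them its PAT difference was 0.04 ± 0.11 averaged over the sexes (limma adjusted p = 0.882), and 0.05 ± 0.13 without PAT female 1. That array, at 7.99, was the fifth lowest for H2-Ea and not the highest. The brightest probe set lay above the array medians over all probe sets, 5.68 to 5.79, although H2-Ea is not expressed in NOD. Its values may therefore not be H2-Ea transcript, and which of the 3 probe sets reads the gene was not tested.

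Cd74, the invariant chain, followed the chain genes array by array. It was at 9.10, 9.10 and 8.92 in control females, 10.26, 9.35 and 9.10 in PAT females, and 9.20, 8.93 and 9.33 in STAT females. The lowest PAT female equalled the highest control female to the second decimal. The female PAT difference was 0.53 ± 0.23 (n = 3 and 3, limma adjusted p = 0.2) with all arrays and 0.18 ± 0.20 without PAT female 1 (limma adjusted p = 0.713). In males it was at 9.16, 9.40, 9.58, 9.33 and 9.46 with control and at 9.27, 9.73, 9.24, 9.68 and 8.97 with PAT, and the difference was -0.01 ± 0.18 (limma adjusted p = 0.986). The SD of Cd74 was 0.15 in control males, 0.32 in PAT males and 0.36 in STAT males. With STAT averaged over the sexes, Cd74 was at 0.04 ± 0.16 from control (95% confidence interval -0.29 to 0.37).

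H2-Aa, H2-Ab1, H2-Eb1 and Cd74 varied together from array to array. Over the 22 arrays their 6 pairs had Pearson correlations between 0.946 and 0.98 and Spearman correlations between 0.909 and 0.975. Pearson correlations were between 0.908 and 0.967 without PAT female 1. After the group means were taken out they were between 0.963 and 0.987, on all 22 arrays with PAT female 1 kept in. These are descriptions over arrays that share tissue, normalization and RNA quality. The other 22 pairs that did not involve Ctss had a median Pearson correlation of 0.624, which was 0.334 without PAT female 1. The 8 pairs with Ctss ran from -0.466 to 0.0651. The mean of the 4 genes was 11.12 on PAT female 1 and between 9.817 and 10.61 on the other arrays.

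H2-DMa, a chain of the exchange factor H2-DM, had its lowest group mean in STAT males, 7.40 ± 0.02 (SD, n = 3), although the lowest single arrays were PAT male 5 and PAT male 3. It was at 7.73, 8.17, 7.83, 7.63 and 7.82 in control males, 7.84, 7.80, 7.35, 7.81 and 7.34 in PAT males, and 7.40, 7.37 and 7.42 in STAT males. The STAT males all lay below the control males, which 3.64% of all genes did, and were the tightest group. The difference was -0.44 ± 0.18 (n = 3 and 5, limma adjusted p = 0.234), so it did not pass. In females H2-DMa was at 7.70, 7.89 and 7.90 with control, 8.60, 7.71 and 7.50 with PAT and 7.65, 7.72 and 7.75 with STAT. The PAT difference in females was 0.11 ± 0.20 with all arrays and -0.22 ± 0.16 without PAT female 1, and neither passed. A dimmer H2-DMa probe set gave a difference of the opposite sign with PAT, at 0.31 ± 0.11 averaged over the sexes (limma adjusted p = 0.105; 0.27 without PAT female 1) against -0.05 ± 0.13 for the brighter probe set (-0.22 ± 0.10 without that array).

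The brighter of the 2 probe sets shared by H2-DMb1 and H2-DMb2, the beta chain genes of H2-DM, was at 7.03 ± 0.08 (SD, n = 3) in control females and 7.39 ± 0.82 (n = 3) in PAT females. Its highest PAT female was PAT female 1, at 8.28, and the lowest was 6.67, below every control female. In STAT females it was at 6.83 ± 0.16 (n = 3). In males it was at 7.17 ± 0.26 (n = 5) with control, 7.03 ± 0.17 (n = 5) with PAT and 6.88 ± 0.10 (n = 3) with STAT. The dimmer shared probe set was at 4.77 ± 0.28 in control females and 4.675 ± 0.18 in STAT females. In males it was at 4.70 ± 0.04 with control and 4.73 ± 0.16 with STAT. H2-DMb2 on its own probe set was at 6.24 ± 0.17 in control females and 6.79 ± 0.85 in PAT females. The H2-DMb2 difference in females was 0.55 ± 0.26 (limma adjusted p = 0.221) with all arrays and 0.06 ± 0.16 without PAT female 1.

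H2-Ob, the beta chain of the H2-O inhibitor, was at 4.21, 4.41 and 4.78 in control females and 7.92, 4.42 and 4.48 in PAT females. No array other than PAT female 1 was above 5.13. Those other levels of H2-Ob lay below the array medians over all probe sets, 5.68 to 5.79, and most levels of H2-Oa lay near them. RMA understates differences of such dim probe sets. The PAT difference of H2-Ob in females was 1.14 ± 0.54 (limma adjusted p = 0.237) with all arrays and -0.02 ± 0.22 without PAT female 1. The test of the difference between the sexes gave 1.42 ± 0.69 (limma adjusted p = 0.272), and 0.26 without that array. H2-Oa, the alpha chain, was at 5.49, 5.53 and 5.46 in control females, 6.31, 5.77 and 5.68 in PAT females, and 5.60, 5.75 and 5.65 in STAT females. Both antibiotic groups of females lay above all control females, as 14.7% of all genes did with PAT and 4.79% with STAT. The differences were 0.43 ± 0.15 with PAT (limma adjusted p = 0.101; 0.23 ± 0.14 without PAT female 1) and 0.17 ± 0.15 with STAT (limma adjusted p = 1), and in males 0.04 ± 0.11 and 0.04 ± 0.13.

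Ciita, the class II coactivator, was at 5.87, 5.84 and 5.86 in control females, 6.28, 5.70 and 5.78 in PAT females, and 5.76, 5.96 and 5.86 in STAT females. In males it was at 5.61, 5.68, 6.12, 5.91 and 5.90 with control, 5.86, 6.18, 5.72, 5.94 and 6.32 with PAT, and 5.82, 5.81 and 5.81 with STAT. The highest array was PAT male 5, on which H2-Aa, H2-Ab1, H2-Eb1 and Cd74 were at their lowest of the PAT males. The PAT difference of Ciita averaged over the sexes was 0.11 ± 0.10 (95% confidence interval -0.09 to 0.31, limma adjusted p = 0.536), and 0.02 ± 0.09 without PAT female 1 (limma adjusted p = 0.925). The STAT difference was -0.01 ± 0.10 (limma adjusted p = 0.978). All levels of Ciita lay close to the array medians over all probe sets, 5.68 to 5.79. RMA understates differences of such dim probe sets, so a small change of Ciita could be missed.

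**Figure D2:**
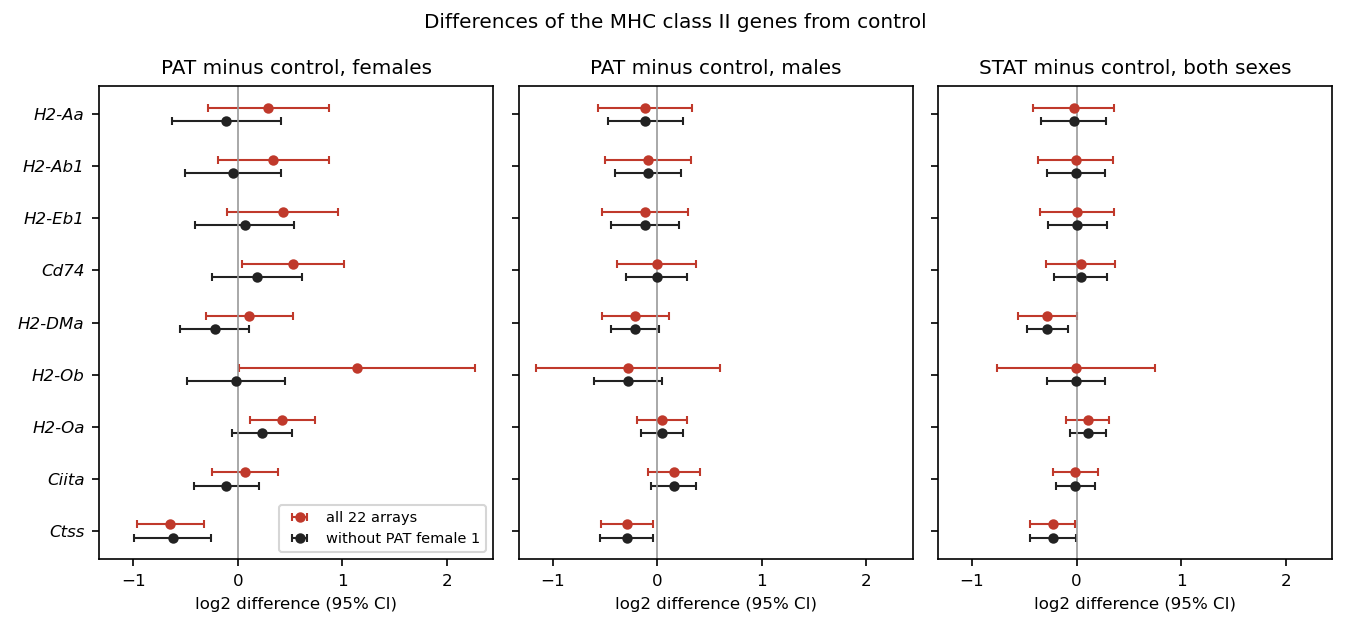
Log2 difference from control (horizontal axis) with its 95% confidence interval for the 9 measured genes, in PAT females, PAT males and STAT of both sexes, with all 22 arrays (red) and without PAT female 1 (black). In PAT females the class II genes move to the left when that array is left out, H2-Ob from 1.14 to -0.02, whereas Ctss stays at -0.64 and -0.62.

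In counts, 1 of 9 measured genes was called with PAT averaged over the sexes (Ctss), where 11.0% of all 18193 genes were called and 6.38% were called lower. Without PAT female 1 it was again 1 of 9, against 7.88%. These shares are the background, so the count itself says nothing particular about the class II genes. In females 1 of 9 was called against 3.35% of all genes, and without PAT female 1 it was 0 of 9 against 0.731%. In males 0 of 9 were called against 9.02%. At an unadjusted limma p under 0.05 the numbers were 2, 4 and 1 of 9 for the average, females and males, against 24.1%, 20.9% and 25% of all genes. With STAT, limma called 0 of 9 members and 0 of 18193 genes in any of the 3 comparisons, with 2, 0 and 2 members at an unadjusted p under 0.05, against 13.1%, 3.31% and 15.7% of all genes. The median log2 difference of the 9 genes with PAT averaged over the sexes was 0.126, against -0.00479 over all genes, and without PAT female 1 it was -0.0666. In PAT females the median was 0.34 and turned to -0.0453 without that array, and in PAT males it was -0.114. Between PAT and STAT 0 of 9 were called averaged over the sexes, in females or in males, against 5.88%, 0.863% and 8.71% of all genes. For a difference of the PAT effect between the sexes 0 of 9 were called, against 1 of all 18193 genes.

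Related antigen presentation genes were read in 4 lists. The background for their counts is 11.0% of all genes called with PAT averaged over the sexes, with 6.38% called lower. Among 11 other class II and lysosomal processing genes, 0 rose and 1 fell with PAT averaged over the sexes. That gene was Lgmn, an asparaginyl endopeptidase of the endosome, which fell by 0.57 ± 0.16 (limma adjusted p = 0.0225), from 9.42 ± 0.35 (SD, n = 8) in controls to 8.83 ± 0.19 (n = 8) with PAT. The 8 PAT arrays all lay below the 8 controls, as 1.15% of all genes did. Lgmn was called in 14 of 16 fits that left out 1 array. Without PAT female 1, the lowest array for it, the difference was -0.48 ± 0.16 (limma adjusted p = 0.0776), which did not pass. Other cathepsin genes of the list (Ctsb, Ctsd, Ctse, Ctsh and Ctsl) were not called.

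Of 18 genes of the class II transcription machinery and the interferon gamma signal upstream of it, 2 rose and 4 fell with PAT averaged over the sexes. Over all genes 11.0% were called in that comparison and 6.38% were called lower. Irf1, an interferon-induced transcription factor that acts on the Ciita gene, fell by 1.16 ± 0.14 (2.23-fold, limma adjusted p = 3.08e-05). Its level was 10.83 ± 0.26 (SD, n = 8) in controls and 9.68 ± 0.39 (n = 8) with PAT, with the lowest control at 10.51 and the highest PAT array at 10.25, a separation that 1.15% of all genes showed in that direction. It was called in all 16 fits that left out 1 array, and without PAT female 1 the difference was -1.13 ± 0.15. The kinase gene Jak2 fell by 0.31 ± 0.08 and the interferon gamma receptor gene Ifngr2 by 0.32 ± 0.09 (limma adjusted p = 0.0144 and 0.032). Jak2 was called in 16 of 16 fits that left out 1 array and Ifngr2 in 7 of 16, with adjusted p up to 0.0819. Nfyb, a subunit of NF-Y, rose by 0.25 ± 0.07 (limma adjusted p = 0.0186) and did not pass without that array (0.072). The other two of the 6, named after their values were seen, were Rfx5, a subunit of RFX, at -0.25 ± 0.08 (limma adjusted p = 0.0429), and the signalling inhibitor gene Socs1, at 0.30 ± 0.09 (limma adjusted p = 0.0419). Ifng was not called. With STAT, Irf1 was at -0.28 ± 0.15 (limma adjusted p = 0.421).

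Among 14 MHC class I and interferon gamma target genes, 0 rose and 6 fell with PAT averaged over the sexes, and the list's median was -0.275. In that comparison 6.38% of all genes were called lower. Psmb8 and Psmb9, immunoproteasome subunits, fell by 0.77 ± 0.13 and 0.50 ± 0.08 (limma adjusted p = 0.000953 and 0.000534). Tapbp, which bridges class I to the peptide transporter, fell by 0.51 ± 0.08 (limma adjusted p = 0.000271), and Tap2, a transporter subunit, by 0.31 ± 0.08 (limma adjusted p = 0.0124). The remaining called genes, named after their values were seen, were Tap1 and B2m, and B2m did not pass without PAT female 1 (limma adjusted p = 0.0962). Psmb8, Psmb9, Tap1 and Tap2 are the class I genes that lie between H2-DMb1 and H2-Ob on chromosome 17. With STAT 0 of the 14 were called, as were 0 of all 18193 genes, although the median was -0.275 there as well. Of 10 genes of class II turnover and T cell contact, 0 were called with PAT averaged over the sexes. The smallest p in that list belonged to Cd274, the gene of PD-L1, at -0.26 ± 0.09 (limma adjusted p = 0.067), and Cd80, a costimulatory ligand, at -0.17 ± 0.07 (limma adjusted p = 0.13). In PAT males 1 of the 10 fell, Cd83, a maturation marker of dendritic and B cells named here after its value was seen, by 0.81 ± 0.24 (limma adjusted p = 0.0405). Among all genes 9.02% were called in PAT males.

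**Figure D3:**
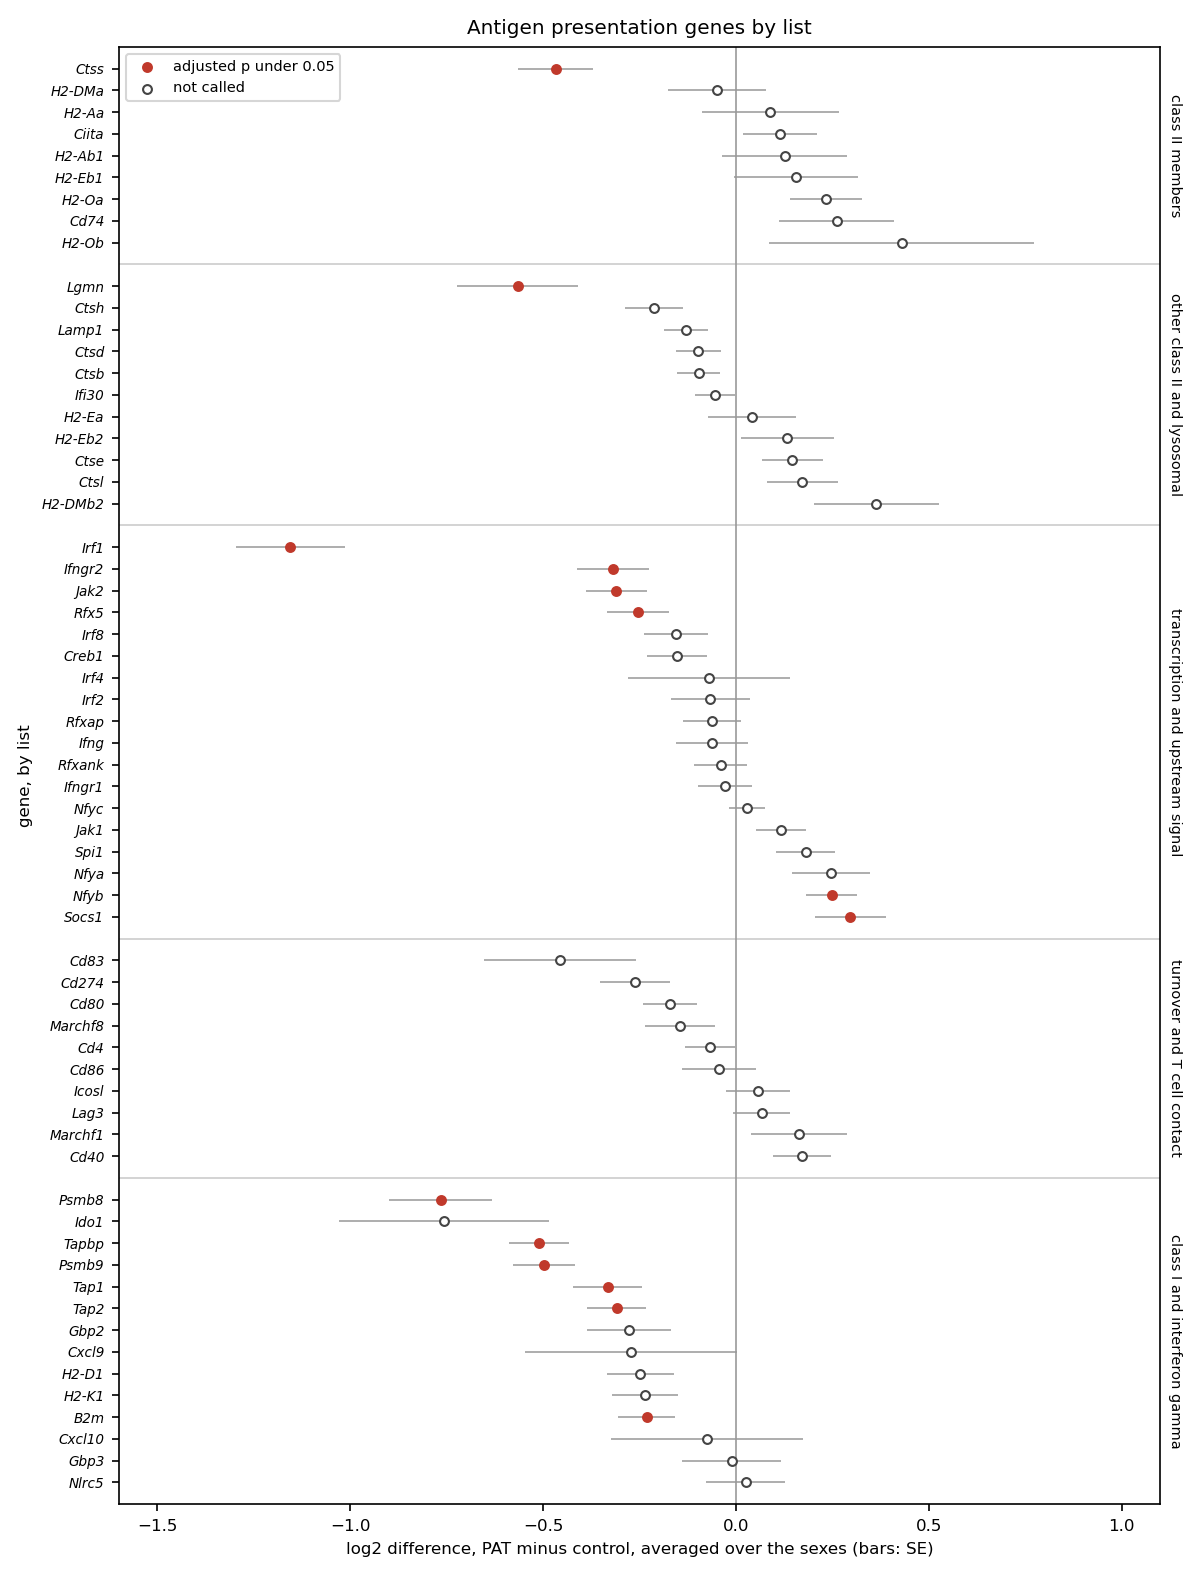
Log2 difference between PAT and control averaged over the sexes (horizontal axis), with its SE, for the 9 measured class II genes and 4 lists of related genes, sorted within each list. Filled red points passed limma's test at an adjusted p under 0.05; Irf1, at -1.16, lies farthest from 0, and all 6 called genes of the class I list lie to the left.

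Markers of B cells, macrophages, dendritic cells, T cells, plasma cells and epithelium were also read in lists. The share over all genes was 11.0% called with PAT averaged over the sexes, with 6.38% called lower. Of 13 B cell markers 0 were called with PAT averaged over the sexes, and their median difference was 0.166 with all arrays and -0.0357 without PAT female 1. Cd79b was at 0.61 ± 0.25 (limma adjusted p = 0.137) and Cxcr5, a follicle homing receptor gene, at 0.34 ± 0.16 (limma adjusted p = 0.191); without that array they were at 0.19 ± 0.12 and 0.12 ± 0.11. Of 12 macrophage markers 1 fell, Cd14, the lipopolysaccharide coreceptor gene, by 0.59 ± 0.15 (limma adjusted p = 0.0131; 0.0513 without PAT female 1). Of 10 dendritic cell markers 0 were called, and the one of smallest p with PAT was Ccr7, at 0.33 ± 0.16 (limma adjusted p = 0.218; 0.08 ± 0.10 without PAT female 1). Xcr1 had the smallest p with STAT, at -0.17 ± 0.08 (limma adjusted p = 0.383), and was at -0.03 ± 0.08 with PAT. Of 11 T cell markers 2 fell, the granzyme genes Gzma, by 1.58 ± 0.24 (limma adjusted p = 0.00033), and Gzmb, by 0.90 ± 0.18 (limma adjusted p = 0.00286). Of 7 plasma cell markers 2 rose (Sdc1 by 0.32 and Xbp1 by 0.17), of 10 epithelial markers 1 rose (Krt18 by 0.19), of 6 ileal enterocyte markers 2 rose (Fgf15, a bile acid induced hormone gene, by 2.16 and Fabp6 by 0.21), and of 7 follicle epithelium markers 1 fell (Ccl20, a chemokine gene, by 0.74). Among these risers the call held in 9 of 16 fits that left out 1 array for Sdc1, 3 of 16 for Xbp1, 14 of 16 for Krt18, 16 of 16 for Fgf15 and 5 of 16 for Fabp6. Their part in the fall of Ctss was not tested.

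**Figure D4:**
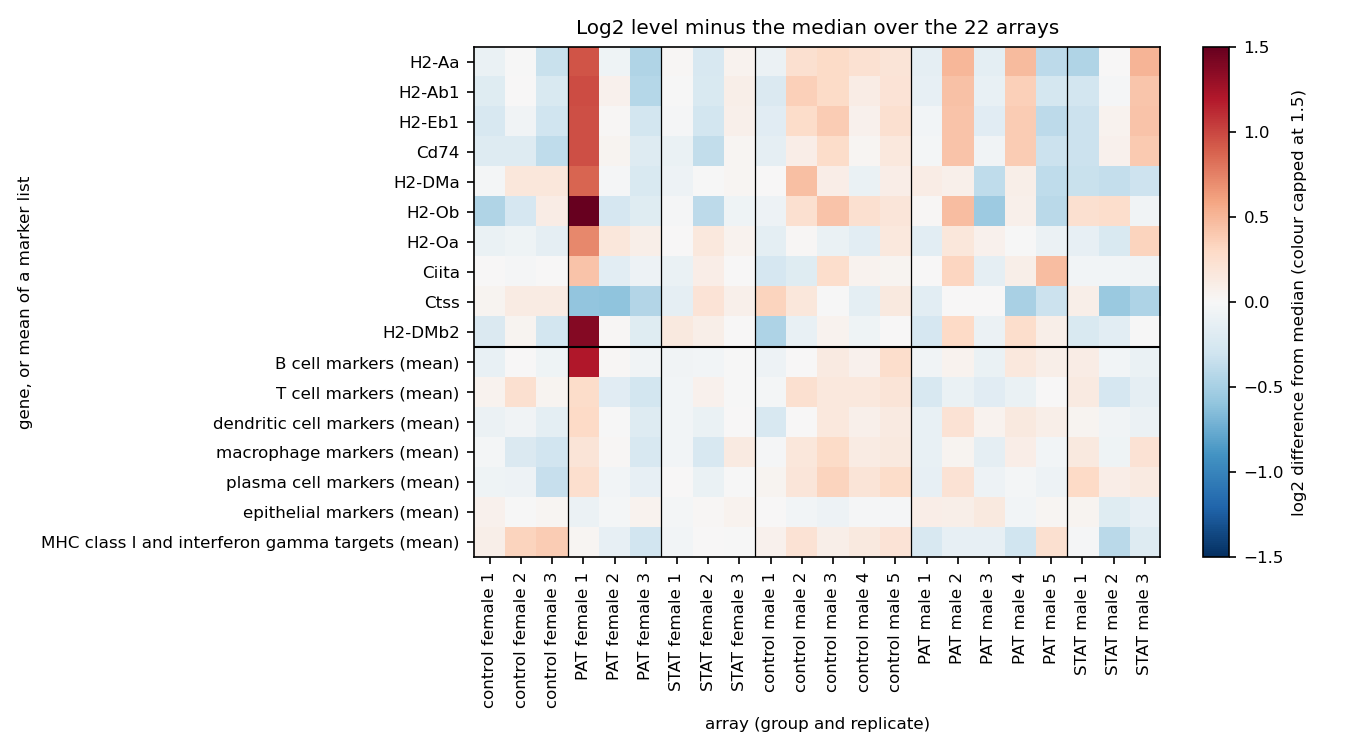
Log2 level minus the median over the 22 arrays (colour, red above and blue below, capped at 1.5), with a row for each measured gene and H2-DMb2 above the line and for the mean of each marker list below it, and a column for each array. The red column is PAT female 1, on which the class II rows except Ctss are high. The B cell row is at 6.537 there against at most 5.597 elsewhere, the T cell and dendritic cell rows are highest there by smaller margins (5.802 against 5.773 and 6.074 against 5.992), and the epithelial row is not raised.

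Among the 11445 genes with a mean of at least 6, those most like the class II genes across the 22 arrays, by the correlation with the mean of the 9 centred levels, were Coro1a (r = 0.919), Ncf1 (0.899), Ptprc (0.894), Arhgdib (0.882), Arhgap30 (0.877), Cd52 (0.871), Il7r (0.862), Rac2 (0.857), Ero1b (0.856) and Ikzf1 (0.856). Ptprc encodes the leukocyte antigen CD45, Coro1a a leukocyte coronin and Ncf1 a subunit of the phagocyte oxidase. Without PAT female 1, 4 of these 10 stayed among the first 10, and the leading gene was Itgb2, a leukocyte integrin, with r = 0.805. After the group means were taken out, with PAT female 1 kept in, 5 of the 10 stayed. The leading gene there was Pou2af1, a B cell coactivator, with r = 0.951. Pou2af1 was at 8.23 on PAT female 1 and at most 7.02 elsewhere, and it was not among the first 10 without that array. The correlations describe arrays that share 1 tissue, and none of the 10 was called with PAT averaged over the sexes.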

How the data were processed

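Total RNA from the terminal ileum was labelled with biotin by an Affymetrix kit and read on 1-colour arrays, per the labels. What the authors deposited is 1 log2 value per probe set and array. It came from RMA, and the submitters' processing notes also name affy; no version or later step is given in the sources used here. RMA pulls dim probe sets together, so their differences are understated. The table held 45101 probe sets, with column medians between 5.68 and 5.79 and correlations between arrays from 0.984 to 0.997, and no array was a copy of another. Of the probe sets, 64 were controls, 34945 had 1 gene symbol in the platform annotation, 932 had several and 9160 had none. Only those with 1 symbol were named. The brightest by mean stood for each of 18193 genes.

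Limma 3.58.1 in R 4.3.3 fitted 1 mean per treatment and sex to all 22 arrays (16 residual degrees of freedom, 4.88 added by the empirical Bayes step). P-values were adjusted by Benjamini-Hochberg over all genes in each comparison, and adjusted p under 0.05 was called. Averages over the sexes weight both sexes equally. On simulated data with 100 changed genes of each size, the PAT comparison averaged over the sexes recovered 88% of changes of 0.5 on the log2 scale. It recovered 100% of changes of 1. In females these shares were 46% and 96%, and in males 76% and 99%. Among the unchanged genes 13, 7 and 9 were called in these comparisons. The changed genes were drawn at random from all genes, with independent noise at each gene's own spread. These rates are not those of the class II genes, whose SE averaged over the sexes reached 0.34 for H2-Ob. The alternatives were other scalings, probe sets averaged within a gene, each probe set on its own, a minimum mean of 6, array weights, RNA integrity as a covariate, only the compared groups, and each array left out. The number of arrays limits the precision.

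The genes and lists were chosen with earlier results of these data known. All measured genes of the pathway were named. From each other list the called genes were named, at most the 4 of smallest p, or the 2 of smallest p in either the PAT or the STAT comparison where none was called, and H2-Ea in any case.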

Additional observations from a re-analysis of the deposited data

Results flagged for a closer look

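Each of the 9 measured genes was examined for an array far from the rest in the groups of 5, control males and PAT males, which made 18 sets of values, and 1 stood out. H2-Aa in control males was at 10.99 on control male 1, whereas the other 4 control males lay between 11.27 and 11.36, so the gap to the nearest was 0.772 of the group's range. How often such a gap comes up by chance was not tested. The 18 sets were not independent, because H2-Aa, H2-Ab1, H2-Eb1 and Cd74 varied together. Groups of 3, which include the PAT females, were too small for this examination.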

How the results depend on the processing

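The count of class II genes called with PAT averaged over the sexes was 1 under each alternative but 1: with RNA integrity as a covariate it was 0. In PAT females the count of 1 became 0 with that covariate and ran from 0 to 1 when single arrays were left out. With STAT averaged over the sexes, 0 became 1 with array weights (Ctss, -0.30, limma adjusted p = 0.0199) and ran from 0 to 1 over the left-out arrays. In STAT males 0 became 2 with array weights (Ctss, -0.51, limma adjusted p = 0.00145, and H2-DMa, -0.39, limma adjusted p = 0.0312) and ran from 0 to 1. Between PAT and STAT averaged over the sexes 0 became 1 with probe sets averaged within a gene (H2-DMa, 0.36, limma adjusted p = 0.0326), and in females 0 became 1 after a repeated quantile normalization and with array weights (Ctss in both). The causes were not tested.

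Over all genes the PAT count averaged over the sexes, 1999, was 756 with RNA integrity as a covariate and 3287 over single probe sets. In PAT females 610 genes became 1524 with array weights and 142 with the covariate, and ran from 123 to 751 over left-out arrays. In PAT males 1641 became 1050 with the covariate, 951 with only the compared groups and 2604 over single probe sets, and ran from 833 to 2089. With STAT, 0 became 2288 averaged over the sexes and 4069 in males with array weights, and the highest left-out counts were 1053 and 1973, without STAT male 1. Of 1962 values of the class II genes under alternatives, 0 reversed a called direction, 8 gained and 7 lost the call, and 150 changed sign without being called under either setting. No paired analysis was possible because the groups share no replicate numbers in the labels.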
